A study of Mus musculus with 49 samples.

Results

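The late phase of culture with IL-2 was examined in WT CD8+ T cells as the change from 24 hr to 48 hr. Its members are 12 of the 48 RNA-seq libraries of the study, defined by the genotype and time on their labels: 6 libraries at 24 hr and 6 at 48 hr. In the study, STAT5A with Y694F or STAT5B with Y699F, substitutions of the tyrosine that is phosphorylated upon IL-2 stimulation, was expressed from knockin (KI) alleles in C57BL/6J mice, and CD8+ T cells were followed over 0, 4, 24, and 48 hr of IL-2. The 4 groups used here are WT cells of the *Stat5a* line and WT cells of the *Stat5b* line at 24 and at 48 hr, with 3 libraries each, all cultured in recombinant human IL-2 at 500 IU/ml. These WT mice came from matings of heterozygous parents and lived with the KI mice, and they are WT by their labels. Both sexes were used, at ages of 8 to 24 weeks. The cells were taken from spleens with a CD8+ T cell isolation kit. No further sort and no T cell receptor stimulus is described for them, and it is not stated whether an RNA-seq library holds cells of 1 or of several mice. For other assays, the study combined the cells of several KI mice. The corresponding KI cells at 24 and 48 hr (12 libraries) were used only where stated, and WT cells at 0 and 4 hr (12 libraries) only for levels side by side.

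The libraries held 37167100 to 56404474 reads on the longest transcripts of the genes (median 47655102). These reads were 74.2% to 80.002% of the mapped reads at 24 hr and 80.5% to 84.4% at 48 hr, so this share moved with time, and its part in the results was not tested. The markers of CD8+ T cells were present. The coreceptor genes *Cd8a* and *Cd8b1* had 258 to 295 RPKM at 24 hr and 214 to 275 RPKM at 48 hr, and 393 to 474 RPKM at 24 hr and 276 to 380.2 RPKM at 48 hr, respectively. No gene of the 12 T cell and CD8 markers was at 0 in any of the 12 libraries. By contrast, *Cd4* had 2.49 ± 0.948 RPKM at 24 hr and 0.902 ± 0.308 at 48 hr (SD, n = 6). Levels are given as the deposited RPKM, which are reads scaled to the length of the transcript and to the mapped reads of the library, and changes as the log2 fold change of the read counts at 48 hr against 24 hr, fitted with edgeR with the line as a block. Genes were called higher or lower at a Benjamini-Hochberg adjusted p of 0.05 or less together with a change of 2-fold or more, a log2 fold change beyond 1 in either direction. Values in parentheses that carry a standard error (SE) or stand alone after a gene are log2 fold changes.

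IL-2 is a growth factor of T cells. It acts through a receptor of an α chain (*Il2ra*), a β chain (*Il2rb*), and the common γ chain (*Il2rg*), activates JAK1 and JAK3, and leads to the phosphorylation of STAT5A and STAT5B, which then enter the nucleus and bind DNA. A resting T cell that enters the cell cycle first grows and makes nucleotides and ribosomes, then replicates its DNA under the control of E2F factors, and then expresses the genes of mitosis, many of which are repressed in resting cells by the DREAM complex and activated in dividing cells by MYBL2 and FOXM1. In CD8+ T cells, IL-2 is also known to raise the genes of cytotoxic granules and to lower genes of the naive state such as *Il7r*.

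Of 13474 genes tested, 534 were higher and 963 were lower at 48 hr than at 24 hr by edgeR's quasi-likelihood test, which is 3.96% and 7.15% of all genes tested. At the adjusted p alone, 4743 genes (35.2%) were higher and 4934 (36.6%) lower, with a median log2 fold change over all genes of −0.02. The balance between rises and falls depended on the level of the genes. Among the 7708 genes with a mean of at least 5 RPKM over the 12 libraries, 231 were higher and 73 lower, whereas among the 3092 genes under 1 RPKM, 181 were higher and 735 lower. The split was the other way round when weakly expressed genes were left out or damped: 327 higher and 262 lower among genes with a mean of at least 1 RPKM, 393 and 220 with limma on log2(RPKM + 0.1), and 263 and 76 with limma on log2(RPKM + 1). The limma fits also change the test and the scaling, so their counts do not show the effect of damping alone. Principal component 1, with 61.5% of the variance of log2 CPM, placed the 6 libraries at 24 hr between −51.3 and −27.1 and the 6 at 48 hr between 19.5 and 45.2, so the times did not overlap.

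**Figure D1:**
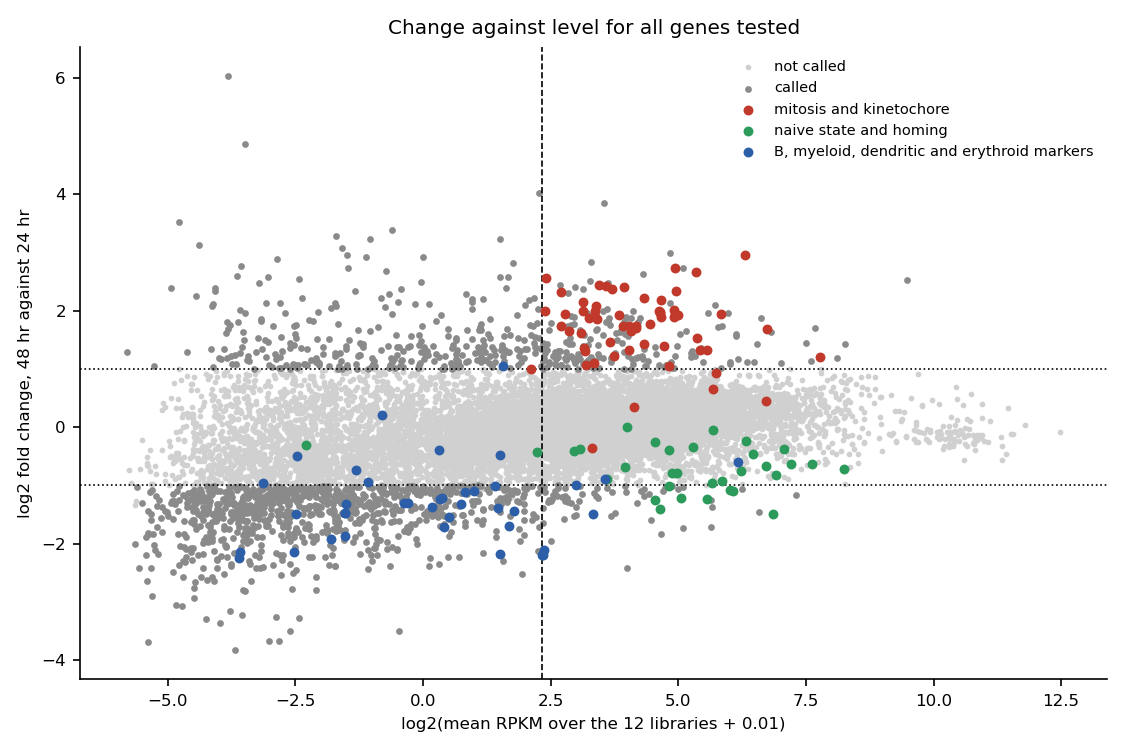
Each point is 1 of the 13474 genes tested, with the log2 of its mean RPKM over the 12 libraries (plus 0.01) on the horizontal axis and its log2 fold change at 48 hr against 24 hr on the vertical axis. Dotted lines mark a 2-fold change and the dashed line 5 RPKM. Mitosis and kinetochore genes (red) lie high at moderate levels, naive state genes (green) lie low at high levels, and most called falls, with the markers of other cell types (blue), lie at low levels.

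Genes of the G2 and M phases of the cell cycle led the rise. Among called genes with a mean of at least 5 RPKM whose 6 libraries at 48 hr all lay above the 6 at 24 hr, the 12 with the largest rise were *Tgm2*, *Ccnb1*, *Ube2c*, *Cdkn3*, *Plk1*, *Ccnb2*, *Cdc20*, *Zbtb32*, *Aspm*, *Gzmb*, *Fam64a*, and *Myl10*. At 24 hr, *Ccnb1* had an RPKM of 4.37, 7.43, and 5.12 in replicates 1 to 3 of the *Stat5a* line and of 5.23, 7.05, and 8.18 in those of the *Stat5b* line. At 48 hr, the values were 39.1, 51.6, and 49.5 and 55.4, 54.6, and 54.7. Every library at 48 hr was above every library at 24 hr, and replicate 1 of the *Stat5a* line was the lowest at 48 hr. The log2 fold change of *Ccnb1*, the cyclin that drives entry into mitosis, was 3.0 ± 0.12 (SE), adjusted p = 1.97e-10. *Ube2c*, the ubiquitin-conjugating enzyme of the anaphase-promoting complex, had 13.6 to 22.9 RPKM at 24 hr and 121.1 to 154.3 RPKM at 48 hr (2.96 ± 0.12 (SE), adjusted p = 1.97e-10). *Cdc20*, the activator of that complex, had 8.93 to 13.6 RPKM at 24 hr and 57 to 78.7 RPKM at 48 hr (2.66 ± 0.08 (SE), adjusted p = 2.39e-11). The mitotic kinase *Plk1* had 5.94 to 9.57 RPKM at 24 hr and 44.9 to 58.8 RPKM at 48 hr (2.73 ± 0.11 (SE), adjusted p = 2.17e-10).

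Some of the leading genes have other known roles. *Tgm2*, transglutaminase 2, had the largest rise under the rule, with 0.965 to 2.01 RPKM at 24 hr and 16.7 to 30.7 RPKM at 48 hr (3.85 ± 0.17 (SE), adjusted p = 2.61e-10). At 24 hr, *Gzmb* had an RPKM of 109.02, 196, and 218 in replicates 1 to 3 of the *Stat5a* line and of 219, 315, and 202 in those of the *Stat5b* line. At 48 hr, the values were 784, 1239, and 1317 and 1341, 1426, and 1221. Granzyme B, the protease of cytotoxic granules, thus had its lowest 48 hr value in replicate 1 of the *Stat5a* line, still above all 24 hr values, and its log2 fold change was 2.53 ± 0.17 (SE), adjusted p = 9.59e-09. *Zbtb32*, a zinc finger repressor of activated lymphocytes, had 3.58 to 6.68 RPKM at 24 hr and 20.5 to 40.2 RPKM at 48 hr (2.64 ± 0.15 (SE), adjusted p = 1.61e-09). *Myl10*, a myosin light chain gene, had 2.74 to 5.51 RPKM at 24 hr and 16 to 24.8 RPKM at 48 hr (2.48 ± 0.14 (SE), adjusted p = 2.30e-09).

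**Figure D2:**
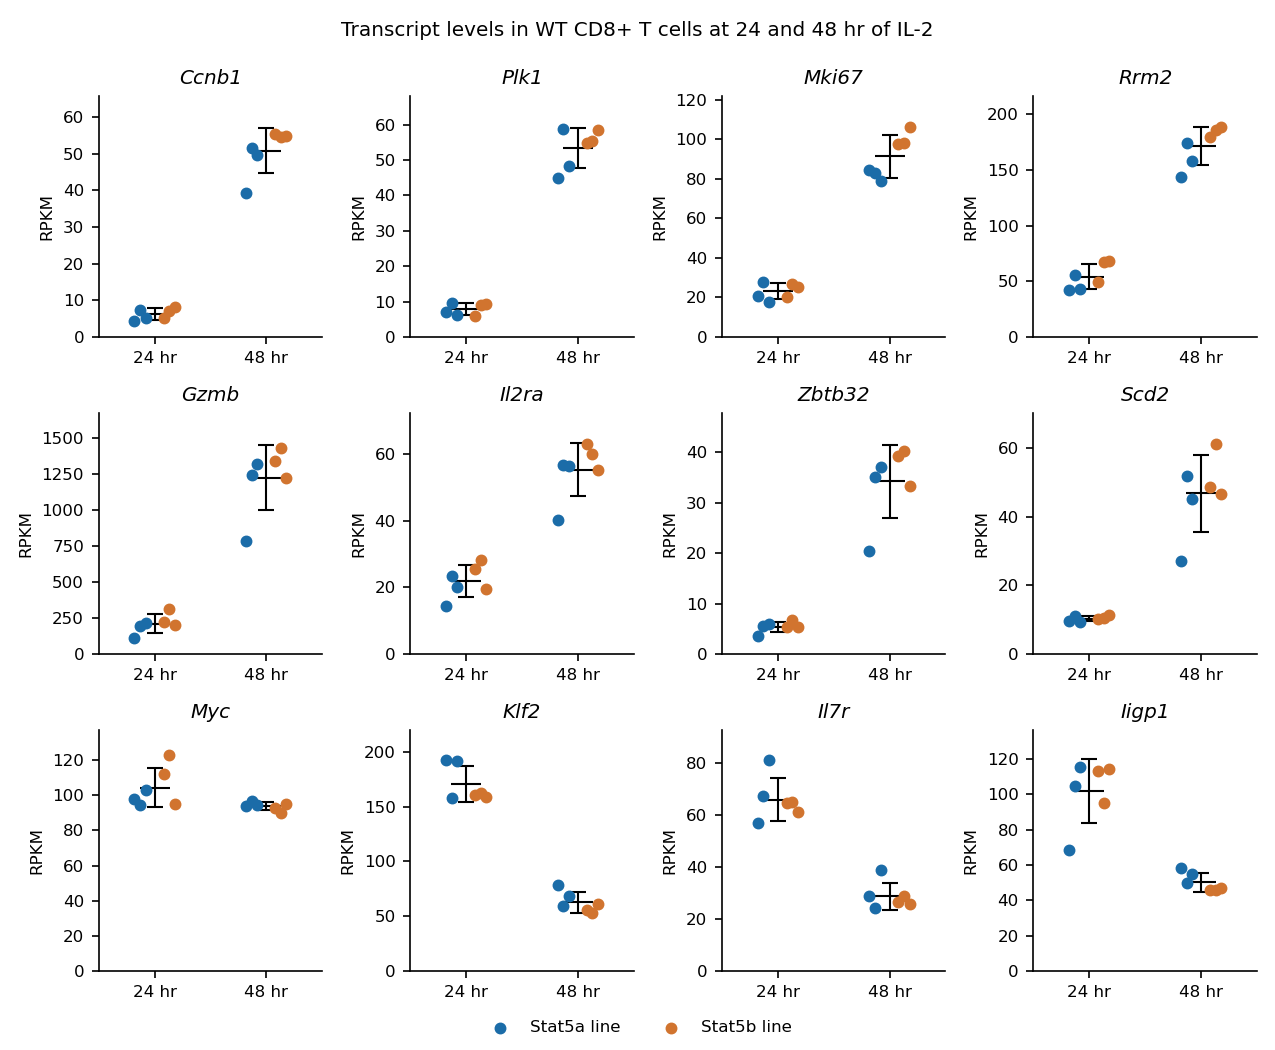
RPKM of 12 genes in the 12 WT libraries, with time on the horizontal axis, RPKM from 0 on the vertical axis, blue points for the 3 libraries of the *Stat5a* line, orange points for the 3 of the *Stat5b* line, and black bars for the mean ± SD of the 6 libraries. *Ccnb1*, *Plk1*, *Mki67*, *Rrm2*, *Gzmb*, *Il2ra*, *Zbtb32*, and *Scd2* rise with no overlap between the times, *Klf2*, *Il7r*, and *Iigp1* fall with no overlap, and *Myc* overlaps between the times.

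Most mitosis and kinetochore genes rose, and most of their promoter windows share short letter runs. All 60 genes of this list were tested, and 55 were called higher and 0 lower (background 3.96% higher). Their median log2 fold change was 1.82, against −0.02 over all genes tested, and in 58 of the 60 all libraries at 48 hr were above all at 24 hr (background 24.3%). The 5 genes not called, with their log2 fold changes, were *Racgap1* (0.92), *Bub3* (0.66), *Smc4* (0.45), *Zwint* (0.35), and the securin gene *Pttg1* (−0.37). The list included the proliferation marker *Mki67* (23.1 ± 4.15 RPKM at 24 hr and 91.3 ± 10.8 at 48 hr, SD, n = 6) and DNA topoisomerase II *Top2a* (49.4 ± 9.64 RPKM at 24 hr and 163 ± 16.9 at 48 hr). The spindle protein gene *Aspm* had 1.5 ± 0.323 RPKM at 24 hr and 9.10 ± 0.887 at 48 hr. The Aurora kinase *Aurka* had 4.77 ± 0.829 RPKM at 24 hr and 25.9 ± 2.76 at 48 hr, and the centromeric histone *Cenpa* 10.1 ± 1.30 RPKM at 24 hr and 52.2 ± 5.03 at 48 hr. The CHR element and the CCAAT box are the promoter elements known for genes of late cell cycle expression. RefSeq promoter windows of 300 bases (250 before and 50 after the annotated start, GRCm38.p6) were at hand for 49 of the 60 genes, with 54 windows. The CHR letters TTTGAA, on either strand, occurred in 39 of these windows (72.2%), against 12.3% of the 12469 windows of tested genes and 17.9% of all 32851 windows. The letters CCAAT, on either strand, occurred in 42 (77.8%), against 37.7% and 37.4%. Both together occurred in 34 windows (63%), against 4.99% and 6.95%. Within the list, the 31 genes with both had a median log2 fold change of 1.94 and the 18 others with a window 1.59. The shares called higher were close, with 93.5% and 88.9%, and 90.9% of the 11 genes with no window. Outside the list, 561 tested genes had both, of which 46 (8.20%) were called higher and 42 (7.49%) lower, against 3.63% and 6.72% of all 9865 tested genes with a window, and their median log2 fold change was 0.03. A match of so short a motif is a description of the letters and not a binding site. The windows of 4 leading genes are shown 5′ to 3′ on the strand of the gene, with CHR and CCAAT letters of either strand in capitals, because these genes are 4 of the 12 with the largest rise and have both.
*Ube2c*, chr2:164769679-164769978, plus strand: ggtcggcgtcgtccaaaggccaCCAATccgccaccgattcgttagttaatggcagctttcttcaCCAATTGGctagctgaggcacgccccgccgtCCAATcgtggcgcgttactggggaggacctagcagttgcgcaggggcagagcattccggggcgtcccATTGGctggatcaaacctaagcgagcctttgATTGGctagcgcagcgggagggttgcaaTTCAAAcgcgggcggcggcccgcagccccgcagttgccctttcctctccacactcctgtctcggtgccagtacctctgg
*Plk1*, chr7:122159185-122159484, plus strand: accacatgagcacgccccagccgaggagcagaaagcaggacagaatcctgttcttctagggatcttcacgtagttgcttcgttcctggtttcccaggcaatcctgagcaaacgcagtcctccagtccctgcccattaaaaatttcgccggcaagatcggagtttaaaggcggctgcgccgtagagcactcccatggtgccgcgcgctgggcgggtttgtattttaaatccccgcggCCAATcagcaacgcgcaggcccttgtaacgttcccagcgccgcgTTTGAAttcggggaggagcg
*Ccnb2*, chr9:70421505-70421804, minus strand: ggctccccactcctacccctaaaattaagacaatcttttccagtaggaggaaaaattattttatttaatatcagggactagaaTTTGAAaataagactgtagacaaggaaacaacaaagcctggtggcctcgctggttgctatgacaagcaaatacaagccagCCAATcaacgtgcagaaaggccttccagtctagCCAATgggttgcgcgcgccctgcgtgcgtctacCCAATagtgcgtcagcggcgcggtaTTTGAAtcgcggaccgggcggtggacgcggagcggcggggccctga
*Cdc20*, chr4:118437294-118437593, minus strand: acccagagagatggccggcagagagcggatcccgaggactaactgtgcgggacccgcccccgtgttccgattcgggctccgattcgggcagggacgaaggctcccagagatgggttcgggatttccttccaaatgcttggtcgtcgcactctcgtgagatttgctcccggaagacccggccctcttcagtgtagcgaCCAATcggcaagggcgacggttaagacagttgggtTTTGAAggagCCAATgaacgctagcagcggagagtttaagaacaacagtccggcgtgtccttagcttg
The CHR letters occur at 1 place each in the windows of *Ube2c*, *Plk1*, and *Cdc20* and at 2 places in that of *Ccnb2*, whereas the window of *Ccnb1* has the CCAAT letters only.

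Regulators of the cell cycle changed unevenly. Of the 22 cyclin and CDK genes, 10 were higher and 1 lower (background 3.96% and 7.15%). Cyclins of the S and M phases were among the 10. *Ccna2* had 19.7 ± 4.20 RPKM at 24 hr and 86.3 ± 7.84 at 48 hr (SD, n = 6), with a log2 fold change of 2.10 ± 0.10 (SE), adjusted p = 5.49e-10. *Cdk1* had 10.4 ± 2.22 RPKM at 24 hr and 39.8 ± 4.43 at 48 hr, and the phosphatase *Cdc25c* 0.822 ± 0.239 RPKM at 24 hr and 5.93 ± 0.874 at 48 hr. The G1 cyclins went in different directions. *Ccnd2* had 129.8 to 148.9 RPKM at 24 hr and 111.8 to 126.2 RPKM at 48 hr (−0.26 ± 0.04 (SE), adjusted p = 4.46e-05). *Ccnd3* had 115.2 to 156.5 RPKM at 24 hr and 170.3 to 199 RPKM at 48 hr (0.44 ± 0.05 (SE), adjusted p = 8.20e-07), and neither passed the 2-fold limit. The weakly expressed *Ccnd1* fell (mean RPKM 1.09 at 24 hr, 0.313 at 48 hr, −1.86 ± 0.27 (SE), adjusted p = 1.83e-05). Among 12 E2F, DP, and related factors, 5 were higher and 0 lower (background 3.96% and 7.15%), namely *E2f8*, *Foxm1*, *E2f7*, *E2f2*, and *Mybl2*. The repressor *E2f8* had 3.91 to 6.61 RPKM at 24 hr and 16.7 to 21.2 RPKM at 48 hr (1.82 ± 0.10 (SE), adjusted p = 1.29e-09). The activator *E2f2* had 6.20 to 9.71 RPKM at 24 hr and 16.1 to 20.9 RPKM at 48 hr (1.28 ± 0.10 (SE), adjusted p = 2.29e-08). *E2f1* had 12.8 to 19.9 RPKM at 24 hr and 18 to 21.7 RPKM at 48 hr with overlapping groups (0.26 ± 0.06 (SE), adjusted p = 0.00175). Its partner *Tfdp1* had 56.4 to 80.1 RPKM at 24 hr and 113.4 to 135.2 RPKM at 48 hr (0.88 ± 0.05 (SE), adjusted p = 1.26e-09), so neither passed the 2-fold limit. Of 11 CDK inhibitors and pocket proteins, 4 were higher and 0 lower (background 3.96% and 7.15%): *Cdkn3* (2.85), *Cdkn2a* (1.83), *Cdkn2c* (1.5), and *Cdkn2b* (1.37). The p27 gene *Cdkn1b*, a brake of the G1 phase, had 32.6 to 37.1 RPKM at 24 hr and 21.6 to 24.3 RPKM at 48 hr (−0.63 ± 0.05 (SE), adjusted p = 1.74e-08). The p21 gene *Cdkn1a* had 2.97 to 7.02 RPKM at 24 hr and 5.60 to 9.87 RPKM at 48 hr (0.44 ± 0.13 (SE), adjusted p = 0.00856).

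Most DNA replication genes rose by less than 2-fold. Of the 53 genes, 7 were called higher and 0 lower (background 3.96% and 7.15%), but 51 were higher at the adjusted p alone (background 35.2%), with a median log2 fold change of 0.61. Ribonucleotide reductase *Rrm2* had 42.4 to 68.1 RPKM at 24 hr and 143.95 to 189 RPKM at 48 hr (1.64 ± 0.08 (SE), adjusted p = 7.97e-10). Thymidine kinase *Tk1* had 12 to 24.3 RPKM at 24 hr and 43.1 to 60.1 RPKM at 48 hr (1.65 ± 0.11 (SE), adjusted p = 1.23e-08). The others, *Rrm1*, *Dbf4*, *Mcm10*, *Dut*, and *Orc1*, had log2 fold changes of 1.01 to 1.34. The helicase subunit *Mcm5* had 65.9 to 91 RPKM at 24 hr and 120.7 to 133.1 RPKM at 48 hr (0.71 ± 0.05 (SE), adjusted p = 1.77e-08). Over the whole time course the median level of *Mcm5* was 15.5 RPKM at 0 hr, 17.5 at 4 hr, 75 at 24 hr, and 129.2 at 48 hr, whereas that of *Plk1* was 2.11, 2.91, 8.02, and 55.1 RPKM. The E2F letters TTTGGCGC or TTTCCCGC occurred on either strand in 14 of 57 promoter windows of the replication genes (24.6%), against 2.83% of the windows of tested genes and 1.56% of all windows, and in 4 of 54 windows of the mitosis genes (7.41%). The windows of *Rrm2* and *Tk1* held neither form. The *Mcm5* window, shown with the E2F letters in capitals, is an example of a match.
*Mcm5*, chr8:75109259-75109558, plus strand: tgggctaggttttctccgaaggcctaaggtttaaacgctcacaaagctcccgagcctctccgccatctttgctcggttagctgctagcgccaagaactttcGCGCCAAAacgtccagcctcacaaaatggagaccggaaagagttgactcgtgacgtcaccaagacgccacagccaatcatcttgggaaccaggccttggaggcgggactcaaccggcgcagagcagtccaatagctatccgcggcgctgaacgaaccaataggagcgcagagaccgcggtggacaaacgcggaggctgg
Of 37 genes of DNA repair and damage checkpoints, 4 were higher and 0 lower (background 3.96% and 7.15%), with *Neil3*, *Clspn*, and *Fancd2* among the rises and a median of 0.56. At the adjusted p alone, 32 were higher and 1 lower (background 35.2% and 36.6%). None of the 25 genes of nucleotide synthesis was called, but 24 were higher at the adjusted p alone (background 35.2%), with a median of 0.45. The largest rise was in the mitochondrial folate enzyme *Mthfd2* (25.3 to 39.7 RPKM at 24 hr and 49.7 to 64.3 RPKM at 48 hr, 0.87 ± 0.06 (SE), adjusted p = 1.86e-08).

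**Figure D3:**
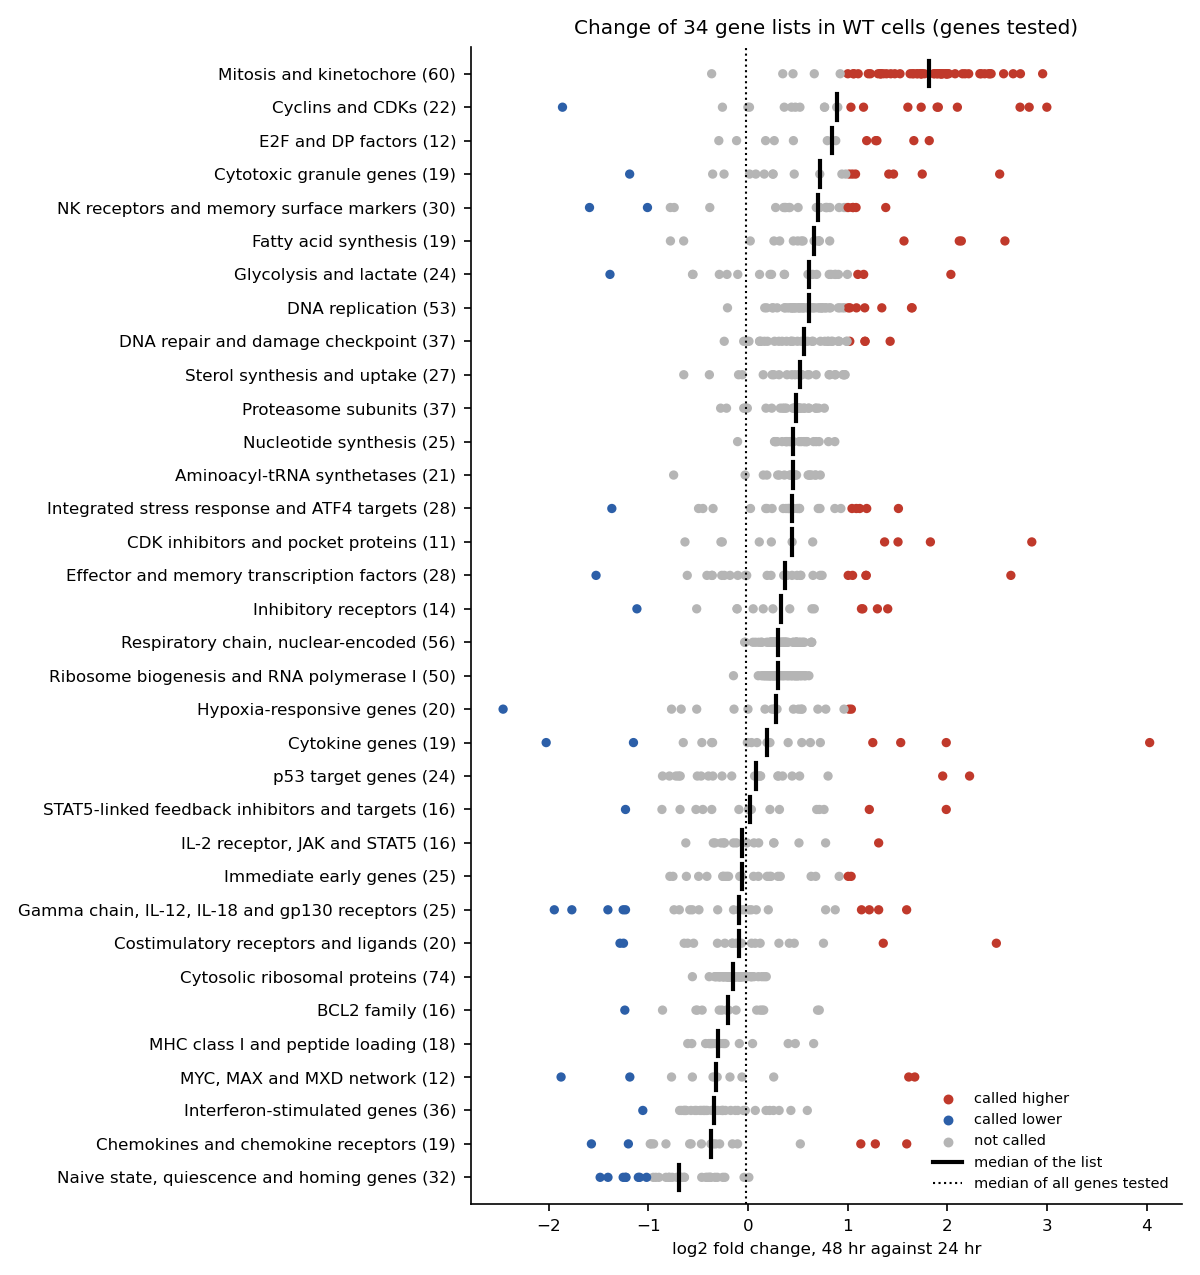
Log2 fold change at 48 hr against 24 hr (horizontal axis) of the tested members of 34 gene lists (rows, number tested in parentheses), with red points for genes called higher, blue for genes called lower, grey for genes not called, and a black bar for the median of the list. The mitosis list stands at the top with a median of 1.82 and the naive state list at the bottom with −0.70, and the dotted line marks the median of all genes at −0.02.

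Genes of ribosome production, respiration, and protein turnover mostly changed by less than 2-fold. *Myc*, the transcription factor of cell growth, had a median level of 21.4 RPKM at 0 hr and 88.5 at 4 hr, and 94.5 to 122.9 RPKM at 24 hr and 90.1 to 96.9 RPKM at 48 hr (−0.18 ± 0.05 (SE), adjusted p = 0.00631). Its relative *Mycn* was low but rose, with 0.609 to 1.59 RPKM at 24 hr and 2.32 to 3.89 RPKM at 48 hr (1.67 ± 0.15 (SE), adjusted p = 1.49e-07). Among 12 genes of the MYC, MAX, and MXD network, 2 were higher (*Mycn* and *Mxd3*) and 2 lower (*Mycl* and *Mxd4*), against a background of 3.96% and 7.15%. *Mxd4*, a repressor that competes for MAX, had 8.61 to 10.7 RPKM at 24 hr and 3.56 to 5.77 RPKM at 48 hr (−1.19 ± 0.09 (SE), adjusted p = 1.71e-08). Its call was lost with limma on log2(RPKM + 1) (−0.998). None of 50 ribosome biogenesis genes was called, with a median of 0.30, although 49 were higher at the adjusted p alone (background 35.2%). The 74 cytosolic ribosomal protein genes went slightly the other way, with 0 called, a median of −0.15, and 44 lower and 3 higher at the adjusted p alone (background 36.6% lower). The 56 nuclear-encoded respiratory chain genes (median 0.31, 51 higher at the adjusted p alone), the 37 proteasome genes (median 0.48, 32 higher and 2 lower), and the 21 aminoacyl-tRNA synthetases (median 0.45, 19 higher and 1 lower) had 0 called genes each. The synthetase that fell at the adjusted p alone was *Wars* for tryptophan, which is also induced by interferon-γ, with 99.2 to 138.6 RPKM at 24 hr and 64.3 to 81.7 RPKM at 48 hr (−0.75 ± 0.07 (SE), adjusted p = 2.33e-07).

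Of 28 genes of the integrated stress response and its factor ATF4, 5 were higher and 1 lower (background 3.96% and 7.15%), with a median of 0.44. The 5 work in amino acid supply. Asparagine synthetase *Asns* had 1.86 to 10.8 RPKM at 24 hr and 7.82 to 23.5 RPKM at 48 hr (1.51 ± 0.27 (SE), adjusted p = 1.42e-04), with overlapping groups. *Gpt2*, *Psat1*, *Slc7a5*, and *Slc7a3* had log2 fold changes of 1.19, 1.12, 1.09, and 1.04. The stress factor *Ddit3* had 6.99 to 10.4 RPKM at 24 hr and 5.97 to 7.67 RPKM at 48 hr (−0.35 ± 0.08 (SE), adjusted p = 0.00111). In glycolysis, 3 of 24 genes were higher and 1 lower (background 3.96% and 7.15%), with a median of 0.61. The lactate exporter *Slc16a3* had 0.512 to 0.987 RPKM at 24 hr and 1.89 to 4.29 RPKM at 48 hr (2.04 ± 0.16 (SE), adjusted p = 3.65e-08). Hexokinase *Hk2* had 3.11 to 5.74 RPKM at 24 hr and 7.59 to 10.8 RPKM at 48 hr (1.16 ± 0.11 (SE), adjusted p = 3.64e-07), and *Tpi1* rose (mean RPKM 81 at 24 hr, 176 at 48 hr). The glucose transporter *Slc2a1* had 13.7 to 18.1 RPKM at 24 hr and 19 to 25.6 RPKM at 48 hr (0.60 ± 0.05 (SE), adjusted p = 1.72e-07). Among 20 hypoxia-responsive genes, 2 were higher, *Egln3* and *P4ha2*, and 1 lower, *Adm* (background 3.96% and 7.15%). The rise of the prolyl hydroxylase *Egln3* (1.04) stayed under 2-fold in the *Stat5a* line alone (0.86).

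Several genes of lipid synthesis rose. Of 19 tested genes of fatty acid synthesis, 4 were higher and 0 lower (background 3.96% and 7.15%), with a median of 0.66. At 24 hr, *Scd2* had an RPKM of 9.50, 10.9, and 9.35 in replicates 1 to 3 of the *Stat5a* line and of 10.1, 10.6, and 11.4 in those of the *Stat5b* line. At 48 hr, the values were 27.1, 51.9, and 45.2 and 48.7, 61.1, and 46.6. The stearoyl-CoA desaturase *Scd2* thus was near 10.3 RPKM in every library at 24 hr and clearly above it in every library at 48 hr, with replicate 1 of the *Stat5a* line the lowest (2.14 ± 0.13 (SE), adjusted p = 3.90e-09). The related *Scd3* (mean RPKM 0.415 at 24 hr, 1.26 at 48 hr), the desaturase *Fads2* (mean RPKM 0.394 at 24 hr, 1.77 at 48 hr), and malic enzyme *Me1* (mean RPKM 0.0315 at 24 hr, 0.194 at 48 hr) rose at far lower levels, by 1.56, 2.12, and 2.58 on the log2 scale. The cytosolic acetyl-CoA synthetase *Acss2* went the other way (10.3 to 11.8 RPKM at 24 hr and 6.26 to 6.60 RPKM at 48 hr, −0.78 ± 0.04 (SE), adjusted p = 4.74e-10). None of 27 tested sterol genes was called, but 23 were higher at the adjusted p alone (background 35.2%), with a median of 0.52.

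Of the IL-2 receptor chains, only the α chain was called. At 24 hr, *Il2ra* had an RPKM of 14.5, 23.5, and 20.02 in replicates 1 to 3 of the *Stat5a* line and of 25.4, 28.3, and 19.4 in those of the *Stat5b* line. At 48 hr, the values were 40.1, 56.8, and 56.3 and 63, 59.8, and 55.3. The groups did not overlap, and *Il2ra* rose by 1.31 ± 0.12 (SE), adjusted p = 1.58e-07. The β chain *Il2rb* had 173 to 254 RPKM at 24 hr and 314 to 397 RPKM at 48 hr (0.78 ± 0.06 (SE), adjusted p = 1.71e-08). The γ chain *Il2rg* had 299 to 344 RPKM at 24 hr and 268 to 333 RPKM at 48 hr (−0.15 ± 0.05 (SE), adjusted p = 0.0143), and neither passed the 2-fold limit. *Il2ra* was the only called gene of the 16 genes of the IL-2 receptor, JAK, and STAT5, 1 higher and 0 lower (background 3.96% and 7.15%). *Stat5a* (19.4 to 23.2 RPKM at 24 hr and 17.1 to 19.1 RPKM at 48 hr) and *Stat5b* (23.6 to 27.1 RPKM at 24 hr and 20.9 to 23.5 RPKM at 48 hr) had log2 fold changes of −0.24 and −0.27. Among 16 feedback inhibitors and targets linked to STAT5, 2 were higher, the cytokine *Lif* and the IL-12 receptor chain *Il12rb2*, and 1 was lower, *Il7r* (background 3.96% and 7.15%). *Lif* had 3.11 to 8.56 RPKM at 24 hr and 23.3 to 36.9 RPKM at 48 hr (1.99 ± 0.18 (SE), adjusted p = 1.65e-07), and *Il12rb2* rose by 1.22 (mean RPKM 9.55 at 24 hr, 22.7 at 48 hr). The feedback inhibitor *Cish* had 26.8 to 41.8 RPKM at 24 hr and 48.8 to 59.4 RPKM at 48 hr (0.69 ± 0.06 (SE), adjusted p = 8.59e-08). Of 25 receptors of the γ chain, IL-12, IL-18, and gp130 families, 4 were higher (*Il2ra*, *Il12rb1*, *Il12rb2*, and *Il1rl1*) and 5 lower (*Il7r*, *Il6ra*, *Il1r2*, *Il9r*, and *Il1r1*), against a background of 3.96% and 7.15%, and the last 3 of the lower genes were at means of 0.0735 to 0.222 RPKM at 24 hr.

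Effector genes rose unevenly. Of 19 tested cytotoxic granule genes, 7 were higher and 1 lower (background 3.96% and 7.15%), with a median of 0.72. Among genes with a mean of at least 1 RPKM only, 3 were higher and 1 lower. The summed RPKM of the NK cell markers was also higher at 48 hr, in 6 of 6 pairs of the same replicate number. The most abundant of them was *Eomes* (mean RPKM 45.8 at 24 hr, 63.5 at 48 hr), which is also a factor of cytotoxic differentiation. The means of *Tyrobp* and *Gata2* were lower at 48 hr, so the sum does not stand for NK cells alone. The part of NK cells in the rise of the granule genes was not tested. *Gzmb* stood apart in level and in change, and *Gzmc* (mean RPKM 5.84 at 24 hr, 15.7 at 48 hr), *Gzmm* (mean RPKM 3.51 at 24 hr, 7.47 at 48 hr), and the granzyme B inhibitor *Serpinb9* (mean RPKM 17.8 at 24 hr, 37.4 at 48 hr) rose by 1.41, 1.08, and 1.05. *Gzme* and *Gzmg* were called at means under 1 RPKM, and reads of these granzymes, which are near copies of each other, may be split between them. The calls of *Gzma* and *Gzmk* were not stable. *Gzma* had 9.08 to 34.4 RPKM at 24 hr and 20.3 to 59.1 RPKM at 48 hr (1.02 ± 0.29 (SE), adjusted p = 0.00514), and 0.54 in the *Stat5b* line alone (adjusted p = 0.273). *Gzmk* had 1.22 to 17.5 RPKM at 24 hr and 0.872 to 6.40 RPKM at 48 hr (−1.19 ± 0.44 (SE), adjusted p = 0.0262), and −0.73 without replicate 3 of the *Stat5a* line at 24 hr (adjusted p = 0.118). Perforin (*Prf1*) had 11.9 to 17.5 RPKM at 24 hr and 22.1 to 25.7 RPKM at 48 hr (0.72 ± 0.06 (SE), adjusted p = 4.55e-08) and did not pass the 2-fold limit.

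Of 19 tested cytokine genes, 4 were higher and 2 lower (background 3.96% and 7.15%). At 24 hr, *Spp1* had an RPKM of 0.681, 0.713, and 0.210 in replicates 1 to 3 of the *Stat5a* line and of 0.504, 0.405, and 0.749 in those of the *Stat5b* line. At 48 hr, the values were 10.6, 11.3, and 7.58 and 7.54, 9.38, and 7.98. Every library at 48 hr thus was far above every library at 24 hr for osteopontin (*Spp1*), and its log2 fold change was 4.03 ± 0.21 (SE), adjusted p = 8.32e-10. *Lif*, *Hbegf* (mean RPKM 1.25 at 24 hr, 3.68 at 48 hr), and *Il10* (mean RPKM 0.0728 at 24 hr, 0.177 at 48 hr) were also higher. *Il2* itself (mean RPKM 0.439 at 24 hr, 0.107 at 48 hr) and *Csf1* (mean RPKM 0.818 at 24 hr, 0.381 at 48 hr) were lower. *Ifng*, a main cytokine of effector CD8+ T cells, had 12.2 to 54.2 RPKM at 24 hr and 35.6 to 81.3 RPKM at 48 hr with overlapping groups and was not called (0.63 ± 0.28 (SE), adjusted p = 0.0577). Among 19 tested chemokines and their receptors, 3 were higher and 2 lower (background 3.96% and 7.15%), with a median of −0.37. At the adjusted p alone, 4 were higher and 12 lower (background 35.2% and 36.6%). The receptors *Ccr2* and *Ccr4* were among those called higher, and the chemokines *Ccl9* and *Ccl1* were those called lower. The call of *Ccl9* was lost with limma on log2(RPKM + 1) (−0.83). *Ccr2* had 3.91 to 8.33 RPKM at 24 hr and 12.3 to 19.8 RPKM at 48 hr (1.59 ± 0.09 (SE), adjusted p = 1.78e-09). *Ccr4* was less abundant (mean RPKM 1.13 at 24 hr, 2.54 at 48 hr).

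Of 28 tested transcription factors of effector and memory cells, 5 were higher and 1 lower (background 3.96% and 7.15%). Beside *Zbtb32*, the higher genes were *Irf4* (mean RPKM 6.94 at 24 hr, 16.1 at 48 hr, 1.19), *Nfil3* (mean RPKM 4.26 at 24 hr, 9.79 at 48 hr, 1.18), *Batf3* (mean RPKM 1.90 at 24 hr, 4.02 at 48 hr, 1.05), and *Bhlhe40* (mean RPKM 11.2 at 24 hr, 22.5 at 48 hr, 1.00). The regulatory T cell factor *Foxp3* was lower (mean RPKM 1.93 at 24 hr, 0.723 at 48 hr, −1.53). With limma on log2(RPKM + 1) the calls of *Foxp3* (−0.76) and *Batf3* (0.78) were lost, and that of *Batf3* was also lost in the *Stat5b* line alone (0.98) and without any 1 of 3 libraries (0.93 to 0.99). *Bhlhe40* stayed under 2-fold in the *Stat5b* line (0.85), against 1.16 in the *Stat5a* line. *Tbx21* had 9.36 to 24 RPKM at 24 hr and 19.2 to 26.4 RPKM at 48 hr (0.53 ± 0.11 (SE), adjusted p = 4.97e-04), and *Eomes* had 33.9 to 50.8 RPKM at 24 hr and 57.8 to 70.8 RPKM at 48 hr (0.44 ± 0.08 (SE), adjusted p = 1.63e-04). Both are factors of cytotoxic differentiation, and neither passed the 2-fold limit. Among 14 inhibitory receptors, *Havcr2*, *Tigit*, *Cd160*, and *Cd244* were higher, and *Nt5e* was lower (background 3.96% and 7.15%). The call of *Havcr2* was lost with limma on log2(RPKM + 1) (0.70). In the *Stat5b* line, *Cd160* and *Cd244* stayed under 2-fold (0.96 each), against 1.35 and 1.31 in the *Stat5a* line. *Nt5e* had 19.1 to 24 RPKM at 24 hr and 8.56 to 11.3 RPKM at 48 hr (−1.12 ± 0.06 (SE), adjusted p = 9.32e-10). Among 20 costimulatory receptors and ligands, *Tnfrsf9*, the receptor 4-1BB, had 12.2 to 35.1 RPKM at 24 hr and 44.3 to 71.7 RPKM at 48 hr (1.36 ± 0.16 (SE), adjusted p = 1.91e-06). *Tnfrsf8*, CD30, also rose (mean RPKM 0.287 at 24 hr, 1.65 at 48 hr, 2.49), whereas *Cd274* (mean RPKM 69.9 at 24 hr, 30.2 at 48 hr) and *Tnfrsf25* (mean RPKM 7.64 at 24 hr, 3.20 at 48 hr) were lower, which makes 2 genes in each direction (background 3.96% and 7.15%). Of 30 NK receptors and memory surface markers, 5 were higher and 2 lower (*Itgae* and *Itga4*), against a background of 3.96% and 7.15%, with a median of 0.70. The summed level of the NK cell markers moved with them. It was 68.8 to 84 at 24 hr (median 74.3) and 95.8 to 131.96 at 48 hr (median 100.9). It was higher in 6 of 6 pairs of the same replicate number, and 0 of 7 tested markers were called. The most abundant was *Eomes*, also a factor of cytotoxic differentiation, while *Tyrobp* and *Gata2* had lower means at 48 hr. The part of NK cells in these rises was not tested.

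Genes of the naive state fell. All 32 were tested, 0 were called higher and 8 lower (background 7.15% lower), with a median of −0.70, and 29 were lower at the adjusted p alone (background 36.6%). In 26 of the 32, all libraries at 48 hr lay below all at 24 hr (background 17.8%). At 24 hr, *Klf2* had an RPKM of 192, 157.7, and 192 in replicates 1 to 3 of the *Stat5a* line and of 161, 162, and 158.4 in those of the *Stat5b* line. At 48 hr, the values were 78.2, 59.2, and 68 and 55.2, 52.7, and 61.5. *Klf2*, the factor that keeps T cells quiescent and drives egress genes, fell with no overlap between times (−1.48 ± 0.07 (SE), adjusted p = 3.49e-10). Its target *S1pr1* (mean RPKM 91.1 at 24 hr, 43.4 at 48 hr), *Klf3* (mean RPKM 46.4 at 24 hr, 20.3 at 48 hr), and *Tsc22d3* (mean RPKM 36.2 at 24 hr, 14 at 48 hr) were also lower. So were *Il6ra* (29.7 to 36.9 RPKM at 24 hr and 11.6 to 19.5 RPKM at 48 hr), *Igfbp4* (mean RPKM 87.3 at 24 hr, 42 at 48 hr), and *Pik3ip1* (mean RPKM 37.6 at 24 hr, 19 at 48 hr). The IL-7 receptor gene *Il7r* had 56.7 to 81.2 RPKM at 24 hr and 24.1 to 38.7 RPKM at 48 hr (−1.23 ± 0.10 (SE), adjusted p = 6.00e-08). The factor *Tcf7* had 214 to 248 RPKM at 24 hr and 140.96 to 179.8 RPKM at 48 hr (−0.64 ± 0.04 (SE), adjusted p = 1.39e-08). It did not reach the 2-fold limit, and the groups did not overlap. The summed RPKM of the B cell and CD4 T cell markers was also lower at 48 hr in 6 of 6 pairs of the same replicate number, with median log2 ratios of −1.15 and −0.70. The part of such cells in the fall of the naive state genes was not tested. In bulk libraries, fewer cells with a transcript and less of it per cell cannot be told apart, here as in the other comparisons.

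Many interferon and antigen presentation genes were lower by less than 2-fold. Of 36 interferon-stimulated genes, 0 were higher and 1 lower, *Iigp1*, an interferon-γ-induced GTPase (68.5 to 115.7 RPKM at 24 hr and 45.7 to 58.2 RPKM at 48 hr, −1.06 ± 0.11 (SE), adjusted p = 5.97e-07). The background of called falls was 7.15%. At the adjusted p alone, 21 were lower and 2 higher (background 36.6% and 35.2%), with a median of −0.35. The call of *Iigp1* was lost in the *Stat5a* line alone (−0.89). The median of 18 genes of MHC class I and peptide loading was −0.30, with 0 called. *H2-T23* had the largest fall (227 to 293 RPKM at 24 hr and 152.7 to 194 RPKM at 48 hr, −0.61 ± 0.06 (SE), adjusted p = 2.16e-07). The chaperone *Canx* was higher at the adjusted p alone (73 to 85.1 RPKM at 24 hr and 110.4 to 133.7 RPKM at 48 hr, 0.66 ± 0.05 (SE), adjusted p = 1.74e-08). Of 16 tested BCL2 family genes, 0 were higher and 1 was lower, the death factor *Bmf* (mean RPKM 1.03 at 24 hr, 0.449 at 48 hr). The survival gene *Bcl2l1* had 14.2 to 22.8 RPKM at 24 hr and 27.5 to 33.6 RPKM at 48 hr (0.71 ± 0.07 (SE), adjusted p = 2.44e-07). Of 24 tested p53 target genes, *Gtse1* and *Perp* (mean RPKM 0.191 at 24 hr, 0.918 at 48 hr) were higher and 0 lower (background 3.96% and 7.15%). *Gtse1*, a gene of the G2 and S phases, had 3.30 to 5.44 RPKM at 24 hr and 14.7 to 18.9 RPKM at 48 hr (1.95 ± 0.08 (SE), adjusted p = 1.97e-10). Of 25 immediate early genes, the phosphatases *Dusp6* and *Dusp4* were higher, both close to the 2-fold limit (1.03 and 1.00), and 0 lower (background 3.96% and 7.15%). At the adjusted p alone, 8 were higher and 8 lower (background 35.2% and 36.6%).

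Globin and MHC class II genes were among the largest falls. Among called genes with a mean of at least 5 RPKM and no overlap, the 12 with the largest fall were *Apol7c*, *Hba-a1*, *Hba-a2*, *Hbb-bs*, *Hbb-b1*, *H2-Eb1*, *H2-Ab1*, *H2-Aa*, *Ecm1*, *Plekho1*, *Apoe*, and *H2-Ob*. The globin genes are near copies of each other, so their separate values are uncertain. *Hba-a1* and *Hba-a2* had equal read counts (1932 each over the 12 libraries) and are 1 measurement. *Apol7c*, an apolipoprotein L gene, had 17.6 to 35.3 RPKM at 24 hr and 2.82 to 7.07 RPKM at 48 hr (−2.42 ± 0.19 (SE), adjusted p = 4.10e-08). The MHC class II gene *H2-Aa*, which B cells and dendritic cells express, had 52.8 to 102.4 RPKM at 24 hr and 13.6 to 41.9 RPKM at 48 hr (−1.72 ± 0.22 (SE), adjusted p = 4.91e-06). *Plekho1* had 29.9 to 40.7 RPKM at 24 hr and 9.65 to 14.9 RPKM at 48 hr (−1.59 ± 0.09 (SE), adjusted p = 2.05e-09). *Ecm1* had 5.50 to 10.3 RPKM at 24 hr and 1.82 to 3.70 RPKM at 48 hr (−1.65 ± 0.11 (SE), adjusted p = 1.07e-08). Of 12 B cell markers, 0 were higher and 11 lower (background 7.15%), with a median of −1.30. With limma on log2(RPKM + 1), which damps the changes of weakly expressed genes, 1 of them was called lower. Their summed RPKM was 28.8 to 98.1 at 24 hr (median 33.6) and 12.9 to 44.5 at 48 hr (median 15.3), lower at 48 hr in 6 of 6 pairs, with *Cd79a* or *Cd79b* the most abundant and no marker at 0. Replicates 1 and 2 of the *Stat5a* line were apart from the other 4 pairs, with sums of 98.1 and 88.1 at 24 hr against 28.8 to 36.3. Without these 4 libraries, 546 genes were higher and 968 lower. Of 14 tested myeloid markers, 8 were lower and 0 higher (median −1.21). Their sum was 86.7 to 129.9 at 24 hr (median 110.4) and 63.1 to 81.6 at 48 hr (median 66.5), lower in 6 of 6 pairs, of which *Cst3* was the most abundant, and *Fcgr1* and *S100a8* were at 0 in 5 of 6 libraries at 48 hr. Of 8 dendritic cell markers, 4 were lower and 1 higher (*Batf3*), and at the adjusted p alone 7 were lower and 1 higher (background 36.6% and 35.2%). Their sum was 8.07 to 15.4 at 24 hr (median 10.8) and 7.07 to 10.4 at 48 hr (median 7.90), lower in 5 of 6 pairs. *Batf3*, also counted here among the effector factors, was the most abundant in every library at 48 hr (mean RPKM 1.90 at 24 hr, 4.02 at 48 hr), so the sum understates the fall of the others. Of 5 tested erythroid markers, 5 were lower (median −2.18), with a sum of 17.9 to 40.8 at 24 hr (median 30.2) and 4.72 to 8.32 at 48 hr (median 6.87). Both this count and the sum hold *Hba-a1* and *Hba-a2* separately. The sum of the CD4 T cell markers, of which 2 of 5 were lower (*Cd4* and *Foxp3*), was 11 to 16 at 24 hr (median 11.9) and 6.76 to 9.50 at 48 hr (median 8.61). Platelet markers summed to 0.353 to 0.713 at 24 hr (median 0.575) and 0.183 to 0.378 at 48 hr (median 0.283), with *Gp9* at 0 in all 12 libraries. The T cell and CD8 markers, with 1 of 12 called lower (*Trat1*, a call lost with limma on log2(RPKM + 1)), summed to 1846 to 2111 at 24 hr (median 2031) and 1779 to 1951 at 48 hr (median 1818). This sum too was lower at 48 hr in 6 of 6 pairs, with a median log2 ratio of −0.15, and at the adjusted p alone 7 of the 12 genes were lower and 3 higher (background 36.6% and 35.2%). The falls of these markers went with those of the class II genes, the naive state genes, and weakly expressed genes, and their part in them was not tested. The globin genes *Hba-a1*, *Hba-a2*, and *Hbb-bs* are themselves erythroid markers, so their falls are the same values.

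**Figure D4:**
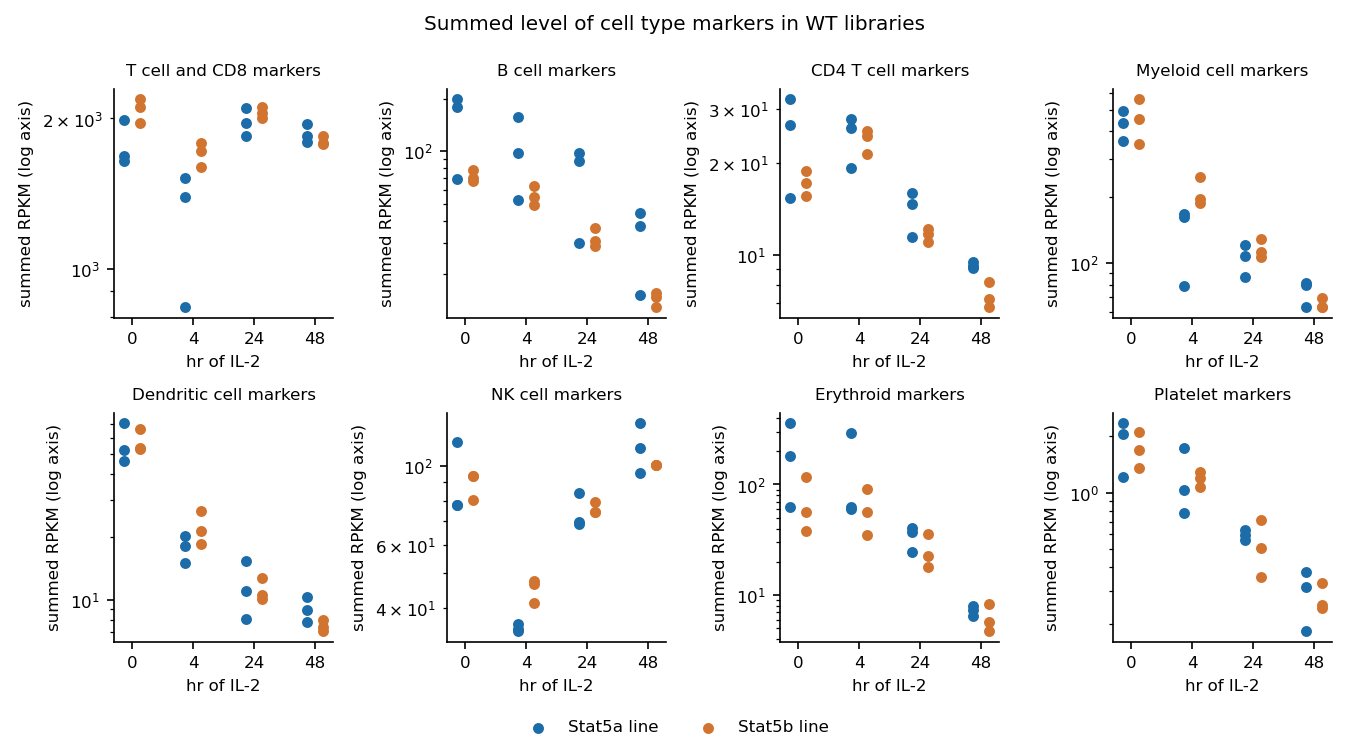
Summed RPKM of the markers of 8 cell types (log axes) in the 24 WT libraries at 0, 4, 24, and 48 hr of IL-2, with blue points for the *Stat5a* line and orange for the *Stat5b* line. The sums of B cell, CD4, myeloid, erythroid, and platelet markers are lower at 48 than at 24 hr in every replicate pair, as are, by a smaller step, those of the T cell markers (1779 to 2111 at both times), and that of NK markers is higher.

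The late change was compared between WT cells of the lines, which are separate matings and not a treatment. In a fit with a mean for each of the 4 groups, 589 genes were higher and 885 lower for the *Stat5a* line (4.37% and 6.57%), against 480 and 843 for the *Stat5b* line (3.56% and 6.26%). Both lines called 414 of the higher genes, 70.3% of those of the *Stat5a* line and 86.2% of those of the *Stat5b* line, and 589 of the lower genes (66.6% and 69.9%), and 0 genes were called in opposite directions. A test of the difference itself called 0 of 13474 genes with edgeR and 0 with DESeq2, with 427 genes at an unadjusted p under 0.05 in edgeR and a smallest adjusted p of 0.999. The median change of the mitosis list was 1.75 for the *Stat5a* line and 1.83 for the *Stat5b* line, and that of the naive list −0.68 and −0.71. A difference too small for 3 libraries per group to show was not detectable here. *Xkrx* is an example of a gene whose 24 hr level differed within a line: it had 9.52, 16.6, and 2.49 RPKM in replicates 1 to 3 of the *Stat5a* line, against 2.55, 2.46, and 2.62 RPKM in those of the *Stat5b* line.

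The same step was compared between WT and KI cells, to ask which parts of the late change depend on tyrosine-phosphorylated STAT5A or STAT5B. From 24 to 48 hr, 402 genes were higher and 335 lower in *Stat5a* KI cells (2.8% and 2.33% of 14356 genes tested, 5.13% in all), and 301 and 220 in KI cells of the *Stat5b* line (2.1% and 1.53%, 3.63% in all). The change itself was more positive in *Stat5a* KI than in WT cells for 156 genes (1.09%) and more negative for 82 (0.571%, 238 in all or 1.66%). At the adjusted p alone the balance was the other way, with 1344 genes (9.36%) more positive and 1991 (13.9%) more negative. In *Stat5b* KI cells the difference was called for 420 genes (2.93%), more positive for 267 (1.86%) and more negative for the others (1.07%), and with the replicate number as a block it was more positive for 424 and more negative for 179. Single libraries moved these counts: 102 genes were more positive in *Stat5a* KI cells without their replicate 2 at 24 hr and 243 without replicate 3 of the WT cells at 24 hr, and 174 in *Stat5b* KI cells without their replicate 3 at 48 hr. Both lines use their own WT libraries, which also entered the WT comparison above, so these differences are not independent of it.

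KI libraries stood apart from WT libraries in the markers of other cells. The summed RPKM of the B cell markers was 201 to 254 at 24 hr and 116.9 to 139.2 at 48 hr in *Stat5a* KI cells, against 29.9 to 98.1 and 15.1 to 44.5 in WT cells of that line. In *Stat5b* KI cells it was 202 to 234 at 24 hr and 146.02 to 153.2 at 48 hr, against 28.8 to 36.3 and 12.9 to 15.5 in WT cells. *Cd79a* was the most abundant B cell marker in all 12 KI libraries. The sum of the myeloid markers was 151.2 to 260 at 24 hr and 122.6 to 194 at 48 hr in *Stat5a* KI cells, against 86.7 to 121.1 and 63.1 to 81.6 in WT cells, and 161 to 249 and 203 to 250 in *Stat5b* KI cells, against 106.9 to 129.9 and 63.3 to 69.5. The erythroid sum was 185 to 422 at 24 hr and 110.96 to 206 at 48 hr in *Stat5b* KI cells, against 17.9 to 35.7 and 4.72 to 8.32 in WT cells, whereas in the *Stat5a* line KI (26.4 to 55.4) and WT cells (24.7 to 40.8) overlapped at 24 hr but not at 48 hr (18 to 22.5 against 6.46 to 8.05). The sums of the dendritic cell and CD4 T cell markers were above those of all WT libraries of the line at both times. So were those of the T cell and CD8 markers (2156 to 2570 in the KI libraries against 1779 to 2111 in WT). Those of the NK markers overlapped. However, *Eomes*, also a factor of cytotoxic differentiation, was the most abundant NK marker in all 12 WT libraries. In most KI libraries it was *Tyrobp* or *Fcer1g*. At 48 hr, *Tyrobp* had 39.7 and 30.7 RPKM in replicates 1 and 3 of *Stat5b* KI cells, against a WT mean of 9.73. Sums without *Eomes* were not compared, so the overlap does not show equal levels of the other NK markers. Marker levels went with the genotype, so their part in the differences between KI and WT cells cannot be told apart from that of the genotype.

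Mitosis genes also rose in KI cells. Of the 60 genes, 53 were called higher in *Stat5a* KI cells, with a median of 1.96, and 54 in *Stat5b* KI cells, with a median of 1.77 (background 2.8% and 2.1% higher). The difference from WT was called for 0 genes of the list in the *Stat5a* line and for 1, *Cenpa* (−1.38), in *Stat5b* KI cells, with median differences of 0.03 and −0.12 (background of a more negative change 0.571% and 1.07%). The levels are given side by side. *Plk1* had 4.17 ± 1.01 RPKM at 24 hr and 16.1 ± 3.18 at 48 hr (SD, n = 3) in *Stat5b* KI cells, against 24 hr and 48 hr means of 7.87 and 53.5 RPKM over the 6 WT libraries. For *Mki67*, *Stat5a* KI cells had 13.1 ± 3.12 RPKM at 24 hr and 63.2 ± 4.99 at 48 hr and *Stat5b* KI cells 10.6 ± 1.72 RPKM at 24 hr and 37.1 ± 7.35 at 48 hr. For the 53 replication genes, the median change was 0.62 in KI cells of the *Stat5a* line and 0.57 in those of the *Stat5b* line, against 0.67 and 0.53 in WT cells of the lines. The difference from WT was called for 0 of these genes in either line (background 1.66% and 2.93%), which is near the background for a list of this size. At the adjusted p alone, it was more negative for 7 and 5 genes (background 13.9% and 11.2%) and more positive for 0 and 1 (background 9.36% and 12.4%).

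Many metabolic and growth genes changed less in KI cells, but not in every list. The median change of ribosome biogenesis genes was −0.08 in KI cells of the *Stat5a* line and 0.09 in those of the *Stat5b* line, against 0.32 and 0.32 in WT cells of the lines. At the adjusted p alone, the change was smaller than in WT for 48 and 30 of the 50 genes (background 13.9% and 11.2%), with 0 past the 2-fold limit. For sterol genes the same counts were 21 and 22 of 28, with *Hmgcs1* (−1.03) and *Sqle* (−1.05) called in *Stat5b* KI cells. For the 56 respiratory chain genes they were 37 and 7. The 74 cytosolic ribosomal protein genes went the other way in *Stat5b* KI cells, with a more positive change for 40 (background 12.4%) and a more negative one for 0. In *Stat5a* KI cells these 2 counts were 0 and 2. For fatty acid synthesis, the difference was called for 4 of the 19 tested genes with *Stat5a* KI cells and for 6 with *Stat5b* KI cells, all with a smaller change (background 0.571% and 1.07%). *Scd2* had 9.82 ± 0.626 RPKM at 24 hr and 15.1 ± 1.23 at 48 hr (SD, n = 3) in *Stat5a* KI cells, and 7.95 ± 0.598 RPKM at 24 hr and 8.91 ± 0.982 at 48 hr in those of the *Stat5b* line, with differences from the WT change of −1.42 and −2.16 (adjusted p = 1.30e-04 and 9.56e-07). Among effector genes, the rise of *Gzmb* differed from WT by −0.26 and −0.23, which was not called, whereas the difference was called for *Zbtb32*, with −1.47 and −2.68, for *Tgm2*, with −3.03 and −2.52, and for *Il2ra* in *Stat5b* KI cells, with −1.14, where it had 9.44 ± 0.155 RPKM at 24 hr and 10.7 ± 1.39 at 48 hr. Of the 29 effector and memory factors, 3 with *Stat5a* KI and 5 with *Stat5b* KI cells were called more negative (background 0.571% and 1.07%), and 0 and 1 more positive (background 1.09% and 1.86%). *Irf4* (−1.09 and −1.37) and *Batf3* (−1.68 and −1.67) were among the more negative.

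Interferon-stimulated genes had median changes of opposite sign in WT and KI cells. Their median change was 0.53 in KI cells of the *Stat5a* line and 0.44 in those of the *Stat5b* line, against −0.35 and −0.32 in WT cells of the lines. The difference was called for 14 of 36 genes with *Stat5a* KI cells and for 10 with *Stat5b* KI cells, all with a more positive change (background 1.09% and 1.86%). *Iigp1*, an interferon-inducible GTPase, had 25.3 ± 9.09 RPKM at 24 hr and 52.9 ± 10.9 at 48 hr in *Stat5a* KI cells and 29.8 ± 4.20 RPKM at 24 hr and 64.7 ± 5.73 at 48 hr in those of the *Stat5b* line, with differences of 1.91 and 2.30. For naive state genes, the KI medians were −0.29 and −0.11, and at the adjusted p alone 20 and 24 of 32 had a more positive change than in WT cells (background 9.36% and 12.4%). *Klf2* (1.04), *Il7r* (1.08), and *Pik3ip1* (1.08) were called in *Stat5b* KI cells. The median change of the B cell markers was −0.88 in KI cells of the *Stat5a* line and −0.59 in those of the *Stat5b* line, and that of the myeloid markers −0.25 and 0.13. Of the 12 B cell markers, 0 were called different from WT in either line (background 1.66% and 2.93%). In *Stat5b* KI cells the change was called more positive for 2 of 18 myeloid, 3 of 8 dendritic cell, 2 of 5 CD4 T cell, and 2 of 8 NK markers and more negative for 1 dendritic cell marker (background 1.86% and 1.07%). In *Stat5a* KI cells it was called more positive for 2 of 7 erythroid markers and more negative for 1 of 8 dendritic cell markers (background 1.09% and 0.571%). The 2 erythroid markers were *Hba-a1* and *Hba-a2*, which had equal read counts and are 1 measurement.

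**Figure D5:**
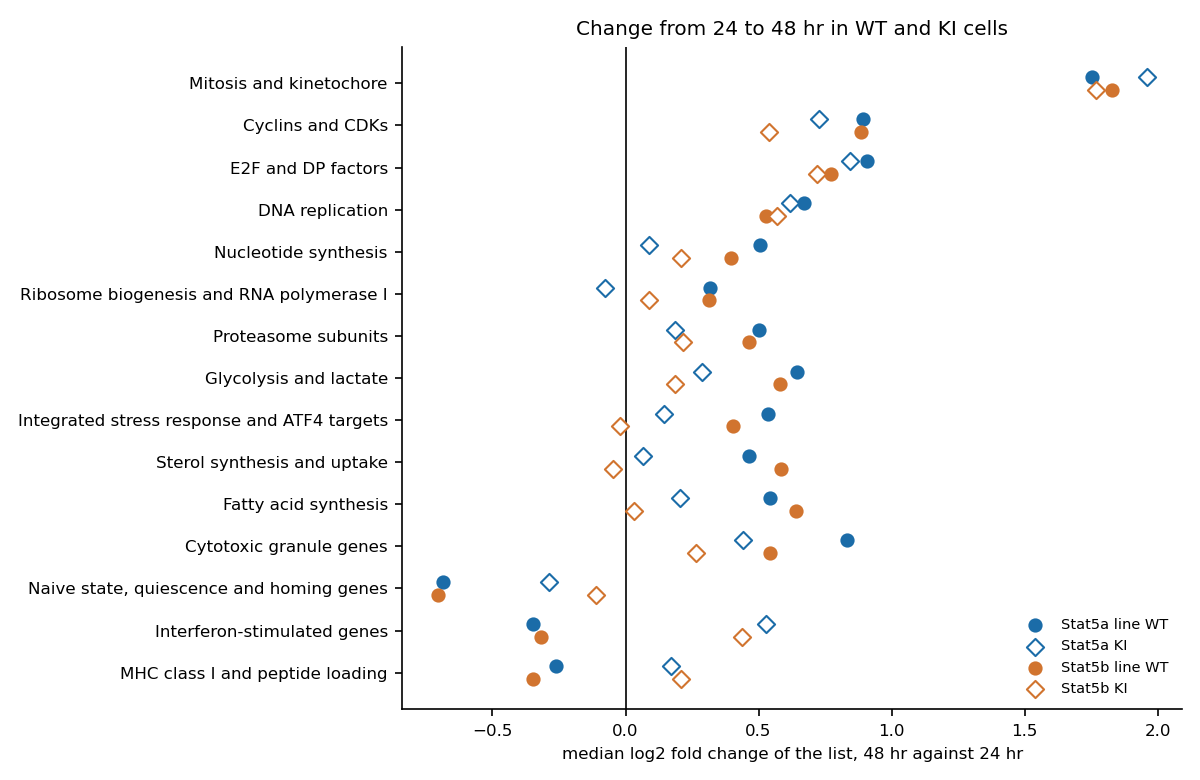
Median log2 fold change from 24 to 48 hr (horizontal axis) of 15 gene lists (rows) in WT cells (filled circles) and KI cells (open diamonds) of the *Stat5a* line (blue) and the *Stat5b* line (orange). The mitosis medians lie between 1.75 and 1.96 in all 4, the metabolic medians are smaller in KI cells, and those of interferon-stimulated genes are below 0 in WT and above 0 in KI cells.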

How the data were processed

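Single-end reads of 50 bp were mapped by the authors to mm10/GRCm38 (TopHat2 2.0.11, Bowtie2 2.2.6, SAMtools 0.1.8, and bedtools 2.25.0, per the submitters' processing notes), who deposited a read count and an RPKM for each of 31682 RefSeq transcripts in each library. The counting program and the use of strand are not given in the sources used here. The longest transcript of each of 23992 symbols was used, since isoforms share reads.

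These counts entered edgeR 4.0.16 in R 4.3.3 (TMM, the quasi-likelihood test, and filterByExpr, minimum count 10), with line and time as terms in the 12 WT libraries. Differences of the change were fitted with 1 mean per group, over 4 groups for the lines and over 8 groups of 24 libraries for KI against WT. The SE is the log2 fold change divided by the square root of the F statistic. Nothing states that libraries came from separate animals, so p-values measure the spread between these libraries, which may be technical. Libraries of a group differed beyond the sampling noise (chi-square per gene 4.83 to 25.1). A floor of 3 reads is 0.0532 to 0.0807 CPM and covers only the counting error, as the reads carry no molecular identifiers and cannot be taken as independent molecules. Replicate numbers paired the times, because deviations of same-numbered libraries from their group means correlated at 0.343, 0.200, and 0.438 (*Stat5a* line) and 0.142, 0.149, and 0.177 (*Stat5b* line), each over 0.1.

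Alternatives were the replicate number as a block, DESeq2 1.42.0 and its size factors, no filter on low counts, a mean of at least 1 RPKM, limma 3.58.1 on log2(RPKM + 1) and log2(RPKM + 0.1), fits of other sets of libraries, each line alone, the most read transcript, no fold threshold, and each library left out in turn. A fit without the 4 libraries highest in B cell markers was chosen after seeing the data. The members, 34 pathway lists, and 8 marker lists were chosen with earlier results of these data known. The rule for named genes took, among genes with a mean of at least 5 RPKM and no overlap between times, the 12 largest called rises and the 12 largest called falls, the extreme members of each list with a mean of at least 1 RPKM, a set of genes fixed by name, and the 3 genes in each direction with the largest called difference between KI and WT. Some of these genes are not reported here. List members outside it were named after their values were seen. The fits were tested on simulated data first. Tables and figures were made in Python 3.11.15 (pandas 2.3.3, numpy 2.4.6, matplotlib 3.10.9).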

Additional observations from a re-analysis of the deposited data

Results flagged for a closer look

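A test of the difference between genotypes called 238 genes for the *Stat5a* line and 420 genes for the *Stat5b* line. Genes among them that were named by the rule above are given here as the KI change minus the WT change from 24 to 48 hr, on the log2 scale (edgeR's quasi-likelihood test, adjusted p at most 0.05, 3 libraries per group). Other called genes that the text names, such as *Irf4*, *Cd274*, and *Tnfrsf8* in both lines, are not in these lists. The WT libraries are those by which many of these genes were named, so a difference toward the WT mean is not independent of the naming. No explanation of these differences was tested, and no test for outlying libraries was run in groups of 3. KI libraries held 201 to 254 summed RPKM of B cell markers at 24 hr, against 28.8 to 98.1 in WT libraries.

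For *Stat5a* KI cells, the change was more positive than in WT for *Xkrx* (2.06), *Iigp1* (1.91), *Gbp11* (1.66), *Apol7c* (1.38), *Hba-a1* (1.31), *Hba-a2* (1.31), *Xcl1* (1.14), *Itgae* (1.10), and *Wars* (1.01). It was more negative for *Tgm2* (−3.03), *Havcr2* (−1.86), *Batf3* (−1.68), *Zbtb32* (−1.47), *Spp1* (−1.43), *Scd2* (−1.42), *Slc16a3* (−1.31), and *Egln3* (−1.01). *Gbp11*, a guanylate-binding protein gene, *Iigp1*, and *Wars* are known interferon targets, and *Xcl1* encodes a chemokine of activated CD8+ T cells and NK cells. *Hba-a1* and *Hba-a2* had equal read counts and are 1 measurement.

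For *Stat5b* KI cells, the change was more positive for *Iigp1* (2.30), *Lyz2* (2.12), *Xcl1* (1.97), *Foxp3* (1.69), *Gbp11* (1.67), *Apol7c* (1.51), *Klrb1c* (1.46), *H2-Ab1* (1.40), *H2-Eb1* (1.37), *Ecm1* (1.22), *H2-Aa* (1.21), *Mxd4* (1.11), *Plekho1* (1.09), *Flt3* (1.08), *Il7r* (1.08), *Ccl9* (1.06), *Klf2* (1.04), and *Wars* (1.04). It was more negative for *Zbtb32* (−2.68), *Tgm2* (−2.52), *Scd2* (−2.16), *Batf3* (−1.67), *Slc16a3* (−1.52), *Egln3* (−1.31), *Spp1* (−1.31), *Havcr2* (−1.27), and *Il2ra* (−1.14). *Lyz2*, *Flt3*, *Foxp3*, and the class II genes are markers of, or abundant in, cells other than CD8+ T cells, and the part of such cells in their differences cannot be told apart from that of the genotype.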

How the results depend on the processing

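Across the 12 WT libraries, 534 genes were higher and 963 lower. Genes with a mean of at least 1 RPKM only gave 327 and 262, limma on log2(RPKM + 0.1) gave 393 and 220, and limma on log2(RPKM + 1) gave 263 and 76. These alternatives test fewer weakly expressed genes or damp their changes by construction, and they turned the balance from more falls to more rises. The limma fits also change the test and the scaling, and these choices were not separated. Without the fold threshold, 4743 were higher and 4934 lower in WT cells, the change was more positive for 1344 genes and more negative for 1991 in *Stat5a* KI cells, and for *Stat5b* KI cells the counts were 1783 and 1607. This turned the balance of the *Stat5a* KI differences, which with the threshold had 156 more positive and 82 more negative genes. With the replicate number as a block, which pairs the times, the WT counts were 540 and 972, the *Stat5a* KI differences 224 and 92, the *Stat5b* KI differences 424 and 179, and the differences between the lines 0, and the block changed 0 of the WT calls of named genes from 24 to 48 hr. The KI differences of single genes were not compared under the block. The cause of the higher *Stat5b* KI count under the block was not tested.

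With 1 library left out, the WT counts ranged from 513 to 567 higher and from 949 to 1096 lower, the genes with a more positive change in *Stat5a* KI cells from 102 to 243, and those in *Stat5b* KI cells from 174 to 262. DESeq2 gave 578 and 1251 in WT cells. No WT call of a named gene turned its direction in any alternative run. Alternatives other than those given moved the genome-wide counts by less than 1.5 times. Counts of called members of the lists moved more: of 84 such counts, 67 moved by over 1.5 times without the fold threshold, 30 with limma on log2(RPKM + 1), 20 with a mean of at least 1 RPKM, 15 with limma on log2(RPKM + 0.1), 9 and 8 in the *Stat5a* and *Stat5b* lines alone, and up to 6 with 1 library left out. The mitosis genes called higher were 53 to 55 and the naive state genes called lower 7 to 9 in the limma fits and with a mean of at least 1 RPKM, whereas the B cell markers called lower went from 11 to 1 with limma on log2(RPKM + 1). Of the named genes tested, 57 had the same call in every alternative run, and 54 gained a call without the fold threshold. Beyond *Gzma*, *Gzmk*, *Egln3*, and *Iigp1*, calls near the 2-fold limit were lost for *Dusp6* and *Batf3* and gained for *Klrb1c*, among others, in some fits. With limma on log2(RPKM + 1), calls were also lost for *Foxp3* (−0.76), *Havcr2* (0.70), *Klra5* (0.64), *Ccl9* (−0.83), *Flt3* (−0.88), *Mxd4* (−0.998), and *Trat1* (−0.96), and that of *Lyz2* was lost in the *Stat5a* line alone (−1.47, adjusted p = 0.0583 by edgeR). *Gzma* was 0.69 without the 4 libraries highest in B cell markers (adjusted p = 0.0913). At 37167100 to 56404474 reads a library, counting error is small for genes over 1 RPKM, and the limits lie in 3 libraries per group and in the weakly expressed genes, which hold most called falls.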

Other observations

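Promoter letters were also counted for 4 further lists, in the same RefSeq windows of 300 bases (GRCm38.p6) and on both strands. ACGTGC, the core letters of the hypoxia response element, occurred in 11 of 21 windows of the hypoxia-responsive genes (52.4%), against 8% of the windows of tested genes and 5.91% of all windows, while 2 of the 20 tested genes of that list were called higher and 1 lower (background 3.96% and 7.15%). TTCNNNGAA, the GAS motif that STAT factors bind, occurred in 7 of 20 windows of the STAT5-linked list (35.0%), against 7.03% and 8.3%. The E-box CACGTG, the motif of MYC and its relatives, occurred in 10 of 53 windows of the ribosome biogenesis genes (18.9%), against 9.86% and 7.15%, and the sterol regulatory letters TCACNCCAC in 1 of 23 windows of the sterol genes (4.35%), against 1.12% and 1.24%. A match is a description of the letters in these windows and not a binding site, and the lists were compiled from known targets of these factors.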
